A study of Bos taurus with 4 samples.

Results

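The sodium and calcium pump ATPases described here are 8 genes, ATP1A4, ATP1B1, ATP1B2, ATP1B3, ATP2A2, ATP2B1, ATP2B4 and ATP2C1. They were chosen by name, with earlier results of these data known. Every probe for sample RNA whose gene name in the scanner output was one of these symbols was taken, which gave 19 probes on 21 spots. The array held 51282 such probes under 32429 gene names. In sperm RNA of low-fertile buffalo bulls, ATP1B3 was lower than in high-fertile bulls. ATP2B4 was called slightly higher, but only just, and several other settings of the processing did not keep that call. ATP2C1 was called lower too, but it had no signal above background in the low-fertile pools, so its level there is not measured. ATP1A4, ATP1B2 and ATP2A2 did not pass the test and ATP1B1 and ATP2B1 were too dim to be tested.

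The sodium pump moves sodium out of the cell and potassium into it against their gradients, at the cost of ATP. It is built of a catalytic alpha subunit and a beta subunit that carries the pump to the cell surface and steadies it. ATP1A4 encodes the alpha isoform of the testis, which is known for its part in sperm motility, and ATP1B1, ATP1B2 and ATP1B3 encode beta subunits. The calcium pumps keep free calcium in the cytoplasm low, and in sperm calcium governs hyperactivated motility and the acrosome reaction. ATP2A2 encodes the SERCA pump that fills the endoplasmic reticulum, ATP2B1 and ATP2B4 encode PMCA pumps that move calcium out through the plasma membrane, and ATP2C1 encodes the SPCA pump that loads the Golgi apparatus with calcium and manganese. ATP2B4 encodes PMCA4, known from mice as the main calcium exporter of the sperm tail.

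The study asked which transcripts differ between spermatozoa of Murrah buffalo bulls with high and with low field conception rates. High-fertile bulls lay above the mean conception rate of the evaluated bulls by 1 SD and low-fertile bulls lay below it by 1 SD. Total RNA of Percoll-selected spermatozoa was pooled in equal amounts from 2 bulls at a time, which gave 2 high-fertile and 2 low-fertile pools. Each of the 4 pools was labelled with Cy3 from an oligo dT primer and hybridized to a bovine array with probes of 60 bases. Both groups were breeding bulls with no treatment or genetic change in the labels, and their ages are not given in the sources used here. The labels give cattle as the organism and the series gives buffalo, so buffalo RNA was read by probes designed on cattle sequence. Which bulls went into which pool is not given in the sources used here, so the pool was the replicate (n = 2 per group). In pooled RNA, fewer cells that carry a transcript and less of it per cell cannot be told apart.

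Values are the processed signal, a linear intensity from which the scanner software had subtracted the background. The software also marks each spot as well above background or not, and writes a surrogate value for a spot that does not rise above its background. For comparisons, the log2 signal of each array was shifted by its 75th percentile, and a difference is the low-fertile mean minus the high-fertile mean on that log2 scale. A probe entered a joint limma fit where both pools of a group, or of both groups, put it well above background, and a probe was called past an adjusted p of 0.05. With 2 pools against 2, an exact permutation test of a single probe cannot give a two-sided p below 0.333, so the p-values rest on limma's pooling of the spread over all probes. Each fertility group filled its own row of the slide, so row and fertility cannot be told apart. Precision is set by having only 4 arrays.

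The array of low-fertile pool 2 stood apart, with 13033 probes well above background against 23228 to 25642 on the other arrays. Of the 19 pump probes, 10 and 8 carried that mark in high-fertile pools 1 and 2 and 9 and 3 in low-fertile pools 1 and 2, and results that rest on low-fertile pool 2 are given with and without it. The sperm identity of the RNA was read from 11 marker genes on the array. Of these, 4 were tested (ODF1, GAPDHS, TNP1 and PRM1), 3 (AKAP4, CRISP2 and HSPA1L) were well above background on no array, and the summed signal of the list was 677 and 529 for high-fertile bulls and 493 and 471 for low-fertile bulls. PRM2 alone read 180 in high-fertile pool 1 and 9.58 to 14.6 on the other arrays. The 10 leukocyte markers, of which 9 were tested and CD3E was well above background on no array, had summed signals of 20781 and 21717 in the high-fertile and 28090 and 28910 in the low-fertile pools. The leukocyte antigen PTPRC was higher in the low-fertile pools by 0.78 log2 (limma adjusted p = 0.0160), a call lost without either high-fertile pool or low-fertile pool 2 (adjusted p = 0.0540 to 0.0770). The leukocyte sum moved with the fertility group, and its part in the pump results was not tested. Sums of the 8 epithelial markers lay between 931 and 995 on the 4 arrays, with EPCAM and CDH1 well above background on none, and those of the 6 red cell markers lay between 307 and 448. Within the red cell list HBB was higher in the low-fertile pools, at 54.1 in both against 20.4 and 29.0 (1.24 log2, limma adjusted p = 0.0118). It was not well above background in high-fertile pool 1 and so entered the test through the low-fertile pair alone. The other tested red cell markers did not pass, HBA at -0.17 log2 and AHSP at 0.24 log2. The part of HBB in the pump results was not tested.

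The probe sequences show how the array reads these genes, since each value below is the signal of 1 such stretch and several genes are read by several of them. They are those of the array design in the scanner output, 5′ to 3′, with the coordinates the file gives for the cattle build Btau_3.1; whether a stretch is coding is not given in the sources used here. The 2 brighter ATP1B3 probes, A_73_P495158 at chr1:129199948-129200007 and A_73_P097511 at chr1:129199921-129199980, both on the minus strand, overlap by 33 bases. Over the overlap they differ at 2 positions, G4A and T16G, counted from its first base with the base of A_73_P495158 first. The first 30 bases of the overlap are shown with the differing bases in capitals, because these probes carry the ATP1B3 result.
ATP1B3 A_73_P495158: ccaGtttttatgtggTttaattgccaagtg
ATP1B3 A_73_P097511: ccaAtttttatgtggGttaattgccaagtg

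The other tested probes are shown with capitals on the longest run of bases shared with a probe of another gene on the array. They are the ATP1A4 probe at chr3:10492890-10492949 on the minus strand (its bases 13 to 42), the ATP1B2 probe at chr19:27871855-27872021 on the plus strand, the ATP2A2 probes at chr17:57026196-57026671 and at chr17:57030850-57030909 (bases 13 to 42 of the latter) on the plus strand, the ATP2B4 probe at chr16:476815-476874 on the plus strand and the ATP2C1 probe at chr1:141152367-141152426 on the minus strand (its bases 31 to 60).
ATP1A4 A_73_P103466: cggaatccaAACCCAGGACCTAcaaacagt
ATP1B2 A_73_120656: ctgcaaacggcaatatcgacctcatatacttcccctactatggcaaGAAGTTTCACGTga
ATP2A2 A_73_P254441: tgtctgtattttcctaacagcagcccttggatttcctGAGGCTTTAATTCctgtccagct
ATP2A2 A_73_106338: ttattgtAACAGACATTGTTTTGccaacat
ATP2B4 A_73_P071476: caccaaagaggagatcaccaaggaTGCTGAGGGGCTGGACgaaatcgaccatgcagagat
ATP2C1 A_73_117741: gctgacagtcccAAATGAAATTATGCAact

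Across the 19 pump probes the longest run shared with a probe of another gene was 12 to 16 bases of 60. The pump probes held 35.0 to 53.3% G and C, against a median of 45.0% over all sample probes. On the strand as printed, 1 pump probe (A_73_P043016 of ATP1B1) held the hexamer AATAAA, which 8.35% of all sample probes held, and 1 (A_73_P070846 of ATP2A2) held ATTAAA, which 3.33% held.

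**Figure D1:**
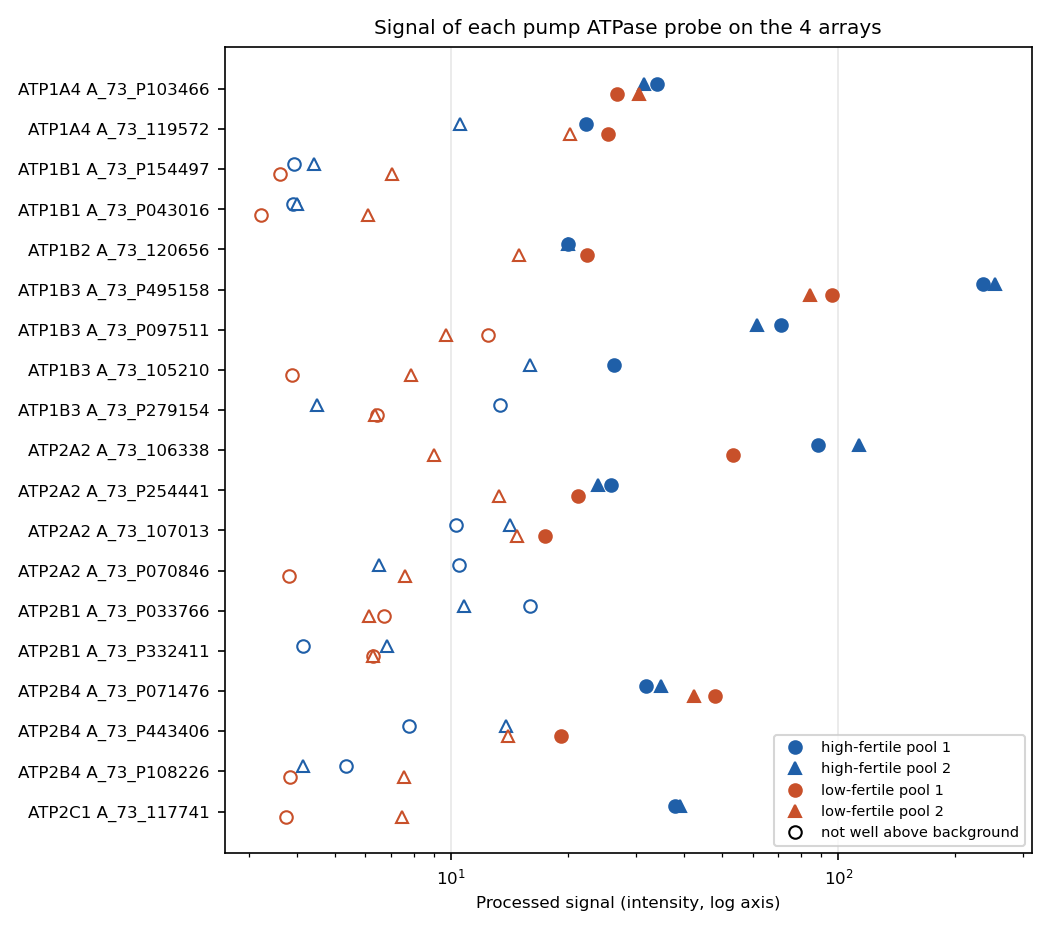
Processed signal (intensity, log axis) of each of the 19 pump ATPase probes on the 4 arrays, with circles and triangles for the pools of a group, blue for high-fertile and red for low-fertile, and open symbols where the probe was not well above background. The ATP1B3 probe A_73_P495158 was the brightest, at 237 and 254 in the high-fertile pools, and 7 probes were open on all arrays.

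Of the 19 probes, 3 were well above background on all 4 arrays, 9 on some and 7 on none. The 8 tested probes belonged to 6 genes, and 5 of the 8 entered the test through the high-fertile pair alone. Entry by that way favours probes that are lower in the low-fertile pools, so counts over the tested probes describe the list without supporting it. No pump spot was saturated or marked as an outlier by the scanner software.

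The alpha subunit ATP1A4 did not pass the test. Its probe A_73_P103466 gave a signal of 34.1 and 31.5 in high-fertile against 26.8 and 30.5 in low-fertile pools, well above background on all arrays. The low-fertile values lay below the high-fertile ones in signal, but on the shifted scale the groups overlapped. The difference was -0.11 log2 (SE 0.182, 95% interval -0.57 to 0.34, limma adjusted p = 0.668), an interval that holds differences of either sign. The sign turned under 1 other background correction and without low-fertile pool 1. After scaling to spike-in probes the difference was -0.50 (limma adjusted p = 0.0582), where the median of all tested probes was -0.39. The second ATP1A4 probe, A_73_119572 at chr3:10461131-10461190, had 2 spots per array and mean signals of 22.2 and 10.5 against 25.4 and 20.2. High-fertile pool 2 was the dim one, the probe was well above background on only 1 array of each group, and it was not tested. On the shifted scale its groups did not overlap, with a difference of 0.66 log2, and its duplicate spots were 0.42 to 0.77 log2 apart on the same array.

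Among the beta subunits, ATP1B3 fell in the low-fertile pools and ATP1B2 did not pass the test. The brightest ATP1B3 probe, A_73_P495158, read 237 and 254 in the high-fertile pools against 96.5 and 84.7 in the low-fertile pools. Both low-fertile values lay far below both high-fertile values and all 4 were well above background. The difference was -1.35 log2 (SE 0.141, limma adjusted p = 0.00352), a 2.56-fold lower signal. It ranged from -1.40 to -1.31 with each pool left out and stayed past the threshold each time, with adjusted p-values up to 0.0260.

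The overlapping ATP1B3 probe A_73_P097511 read 71.2 and 61.8 against 12.4 and 9.68, again with no overlap between the groups. It was not well above background in either low-fertile pool. For such a probe the high-fertile mean was also set against a floor, the mean of, per low-fertile array, the higher of its own signal and the lowest signal of any probe well above background. Here its own signals were the higher ones, so the fold against the floor, 5.69, is the fitted one. As neither low-fertile signal carried the mark, that fold is not a measured one. The fitted difference was -2.51 log2 (SE 0.163, 95% interval -2.92 to -2.10, limma adjusted p = 0.00221). The probe entered the test through the high-fertile pair alone, so its call is no sign of stability. Leaving out each pool gave -2.62 to -2.40. Background correction by normexp with an added offset of 50, which shrinks the differences of dim probes by construction, gave -0.75 (limma adjusted p = 0.000764). A_73_P495158 gave -1.07 there, so which of the overlapping probes fell more depended on the setting.

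The remaining ATP1B3 probes were dimmer. A_73_105210, at chr1:129199786-129199845, read 26.3 and 16.0 in high-fertile against 3.89 and 7.87 in low-fertile pools. Of these only high-fertile pool 1 was well above background, both low-fertile values were surrogates, and the probe was not tested, with a difference of -1.80 log2 and no fold given. A_73_P279154, whose coordinates chr1:129202358-129206505 span far more than its length, read 13.4, 4.50, 6.43 and 6.37 and was well above background on no array.

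ATP1B2, the beta subunit best known from glia and neurons, had 1 probe with 2 spots per array. Its mean signal was 20.0 on both high-fertile arrays and 22.4 and 14.97 on the low-fertile arrays. The low-fertile pools lay on either side of the high-fertile ones, and low-fertile pool 2 was not well above background. The difference was -0.04 log2 (SE 0.184, 95% interval -0.50 to 0.42, limma adjusted p = 0.885), and 0.16 without low-fertile pool 2. On that array the duplicate spots were 0.82 log2 apart, against 0.05 to 0.16 on the other arrays. ATP1B1, the most widespread beta subunit, read 3.93, 4.43, 3.60 and 7.02 with A_73_P154497, in the order of high-fertile pools 1 and 2 and low-fertile pools 1 and 2. Its other probe, A_73_P043016, ranged from 3.23 to 6.11. All values of both probes were surrogates, so neither probe gave a measured level on any array.

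The SERCA pump ATP2A2 was read by 4 probes, and the size of the difference depended on low-fertile pool 2. The probe nearest the 3′ end, A_73_106338, read 88.5 and 113 in high-fertile against 53.6 and 9.05 in low-fertile pools. Neither low-fertile pool reached the high-fertile values, but they were far apart from each other and pool 2 was not well above background. The difference was -2.10 log2 (SE 0.738, 95% interval -3.94 to -0.26, limma adjusted p = 0.0890), which did not pass. Without low-fertile pool 2 it was -0.91 (adjusted p = 0.0516), and without low-fertile pool 1 it was -3.29 (adjusted p = 0.00438). The replicate number as a block changed the call, with an adjusted p of 0.0444, as did normexp (-0.68, adjusted p = 0.0320) and an intensity trend in limma (adjusted p = 0.0450).

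A second tested ATP2A2 probe, A_73_P254441, read 25.9 and 24.0 against 21.2 and 13.3. The groups did not overlap, and low-fertile pool 2 was again the dimmest and not well above background. The difference was -0.48 log2 (SE 0.206, limma adjusted p = 0.139), -0.24 without low-fertile pool 2 and -0.73 without low-fertile pool 1. It was -0.03 under normexp and -0.86 after scaling to spike-in probes. The other 2 probes were not tested. A_73_107013, the one farthest from the 3′ end at chr17:57012177-57012236, read 10.3 and 14.2 against 17.5 and 14.8 and was well above background only in low-fertile pool 1. Its difference was 0.50 log2, of opposite sign to those of the tested probes, and no fold is given. A_73_P070846, at chr17:57030280-57030339, read 10.5, 6.53, 3.80 and 7.59 and was well above background on no array.

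Of the plasma membrane calcium pumps, ATP2B4 was slightly higher in the low-fertile pools and ATP2B1 was not measurable. The ATP2B4 probe A_73_P071476 read 31.8 and 34.7 in high-fertile against 48.0 and 42.4 in low-fertile pools, well above background on all arrays. Both low-fertile values lay above both high-fertile values. The difference was 0.53 log2 (SE 0.143, 95% interval 0.17 to 0.88, limma adjusted p = 0.0461), a 1.44-fold higher signal just past the threshold. The call was lost when any 1 of the 4 pools was left out, high-fertile pool 1 (adjusted p = 0.184), high-fertile pool 2 (0.131), low-fertile pool 1 (0.0962) or low-fertile pool 2 (0.111), with differences of 0.47 to 0.58. It was also lost with the replicate number as a block (adjusted p = 0.0773) and after scaling to spike-in probes (0.15 log2, adjusted p = 0.425), a scaling under which the median of all tested probes was -0.39.

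The other ATP2B4 probes were not tested. A_73_P443406, at chr16:447951-448010, read 7.80 and 13.8 against 19.2 and 14.0, with only low-fertile pool 1 well above background and a difference of 0.75 log2 for which no fold is given. A_73_P108226, at chr16:486866-486925, read 5.34, 4.13, 3.83 and 7.56 and was well above background on no array. For ATP2B1, the widely expressed PMCA1, A_73_P033766 at chr5:22130102-22130161 read 16.0 and 10.8 in high-fertile against 6.72 and 6.14 in low-fertile pools. The low-fertile pools were lower, but no value was well above background, so no fold is given. Its other probe, A_73_P332411 at chr5:22174138-22174920, read 4.15, 6.82, 6.28 and 6.28, also below that mark on every array.

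ATP2C1, the Golgi calcium and manganese pump, had a single probe, which was lower in the low-fertile pools. A_73_117741 read 37.7 and 39.0 in high-fertile against 3.75 and 7.44 in low-fertile pools. The high-fertile pools were close to each other, and both low-fertile values were surrogates for a spot that did not rise above its background. Against the floor described for ATP1B3 the low-fertile mean was 4.87-fold lower, and the fitted difference was -2.78 log2 (SE 0.379, limma adjusted p = 0.00649). That floor is the lowest marked signal of an array, and in low-fertile pool 2 brighter spots also failed the mark, such as ATP1B2 at 14.97, so neither fold is a measured one. Of all 21033 tested probes, 126 (0.599%) likewise carried a surrogate on both low-fertile arrays. The probe entered the test through the high-fertile pair alone, so its call is no sign of stability. The fitted difference was -3.36 without low-fertile pool 2 and -2.19 without low-fertile pool 1, and normexp with its offset gave -0.65 (adjusted p = 0.000870). With 1 probe, no second stretch of the gene was read.

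**Figure D2:**
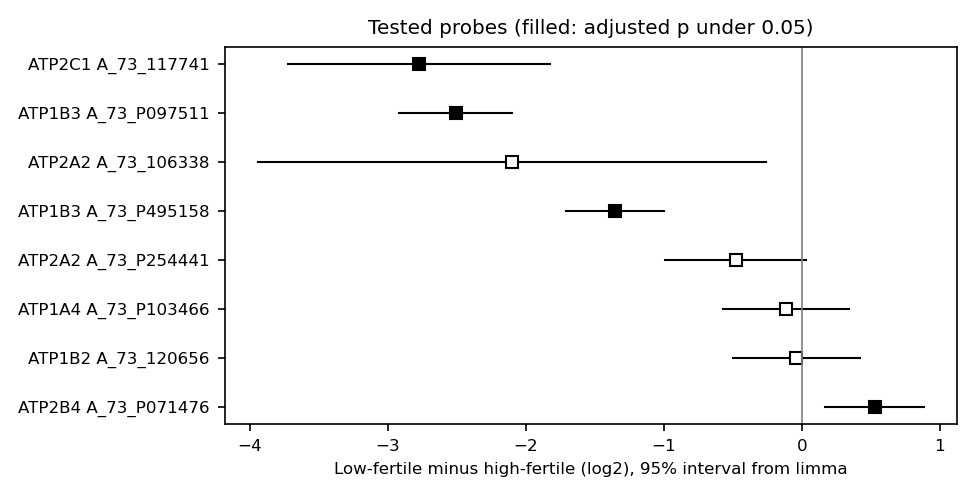
Low-fertile minus high-fertile difference (log2) of the 8 tested pump ATPase probes with 95% intervals from limma (n = 2 pools per group); filled squares have an adjusted p under 0.05. ATP2C1 at -2.78 and both ATP1B3 probes at -2.51 and -1.35 lie below 0, ATP2B4 at 0.53 lies above it, and the wide interval at -2.10 is that of ATP2A2.

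Read by its brightest tested probe, 3 of the 6 tested pump genes passed, 2 lower (ATP1B3 and ATP2C1) and 1 higher (ATP2B4), beside 26.1% of the 16685 genes tested on the array, 16.6% lower and 9.53% higher. By probe, 4 of 8 passed, 3 lower and 1 higher, beside 26.8% of the 21033 probes tested, 17.6% lower and 9.22% higher. The groups did not overlap at 6 of the 8 probes, 5 with the low-fertile pools below and 1 above, beside 69.1% of the 21024 probes with a value on every array, 35.5% below and 33.6% above. A share of that size is near the background. The median difference of the 6 tested pump genes was -0.73 log2, and that of all genes tested was 0.01. With 6 genes, of which 3 entered through the high-fertile pair alone, these figures describe the list and set it apart from nothing. When all 51282 sample probes were tested without the filter, the 4 called pump probes had adjusted p-values of 0.115 to 0.306, and by the test of the study's methods they had 0.0750 to 0.161 after adjustment.

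**Figure D3:**
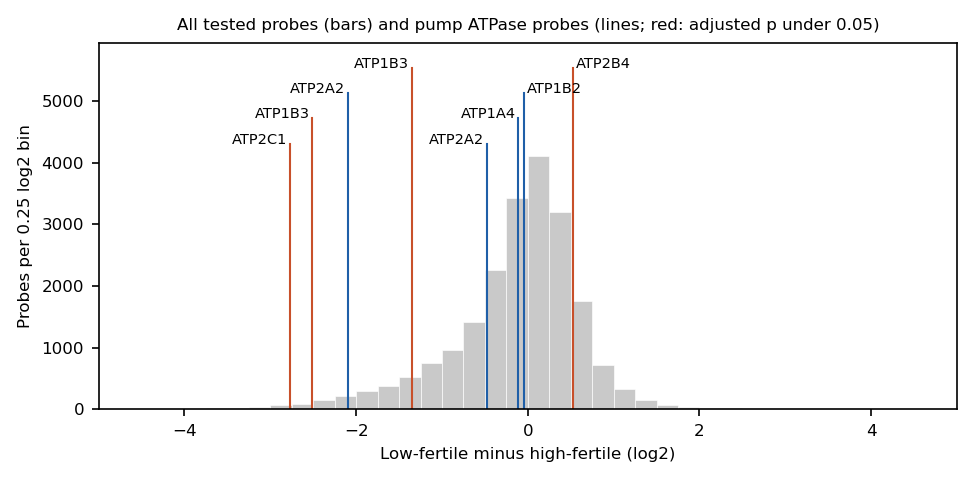
Number of tested probes per 0.25 log2 bin of the low-fertile minus high-fertile difference (bars), with the 8 tested pump ATPase probes as lines, red where the adjusted p was under 0.05. The lines of ATP2C1, ATP1B3 and the ATP2A2 probe at -2.10 stand in the left tail of the bars, and those of ATP1A4 and ATP1B2 stand among the tallest bars.

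Probes of the same gene gave different values. RNA was primed from oligo dT, and the order of the probes from the 3′ end can be read from their coordinates. For ATP2A2 the difference was -2.10 log2 at the 3′-most probe and -0.48 at the tested probe 4238 genomic bases before it. It was 0.50 at the probe 18673 bases before it, which was well above background on 1 array. For ATP1B3 it was -2.51 and -1.35 at the overlapping probes 135 and 162 bases before the 3′-most probe, and -1.80 at that probe, where both low-fertile values were surrogates. The probe at -2.51 was well above background in neither low-fertile pool. Under normexp the overlapping probes gave -0.75 and -1.07 in the same order, so their rank is not settled. For ATP2B4 it was 0.53 at the tested probe and 0.75 at the probe farthest from the 3′ end, which was well above background on 1 array. For ATP1A4 it was 0.66 at the 3′-most probe, untested and well above background on 2 arrays, and -0.11 at the tested probe 31759 bases before it. Probes well above background on no array gave no measured difference, and the effect of probe position was not tested.

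**Figure D4:**
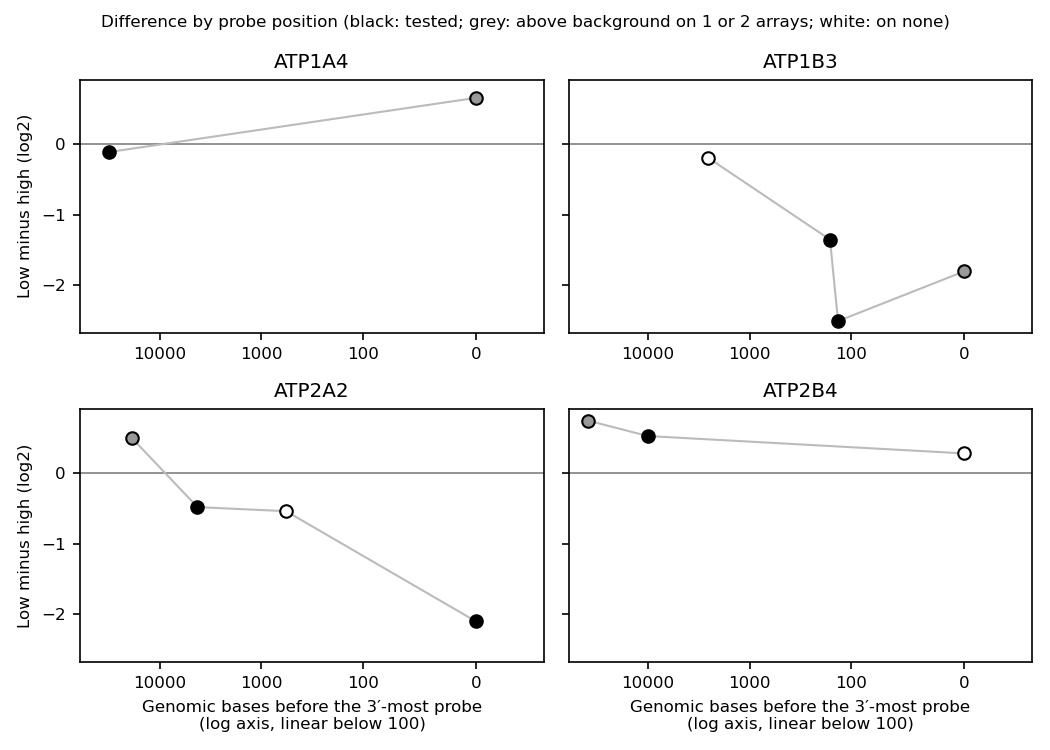
Low-fertile minus high-fertile difference (log2) of each probe of 4 pump genes against the genomic bases between it and the 3′-most probe (log axis, linear below 100); black probes were tested, grey ones were well above background on 1 or 2 arrays but untested, and white ones on none, so that neither sign nor rank can be read from them. The black points are -2.10 and -0.48 for ATP2A2, -2.51 and -1.35 for ATP1B3, -0.11 for ATP1A4 and 0.53 for ATP2B4.

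The pumps work beside other ion pumps, their small regulators, ion exchangers and calcium store proteins, and 58 such genes were read in the same fit. Of these, 52 were on the array and 29 were tested, of which 3 passed by their brightest probe (10.3%), 1 lower and 2 higher, with a median difference of 0.21 log2. Over all genes tested 26.1% passed, 16.6% lower and 9.53% higher, and the counts of each list below stand against the same shares. Among 5 tested other pumps the median was 0.67 log2 and 4 lay above 0. In limma 0 of the 5 passed, while 4 had an unadjusted p under 0.05, beside 8741 of all 21033 probes, and 1 did by the unadjusted test of the study's methods.

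Of 8 tested regulators and partners, limma called 0 by their brightest probe, with 0 at an unadjusted p under 0.05 and 1 by the unadjusted test of the study's methods. BSG, a chaperone of membrane transporters and an auxiliary subunit of PMCA pumps, read 27.1 and 27.7 against 32.4 and 25.1 (0.14 log2, adjusted p = 0.505). PLN, the phospholamban that restrains SERCA, had 2 probes and neither was tested: they read 3.47, 3.76, 3.26 and 6.24, and 4.48, 17.4, 20.5 and 11.6. Probes of a gene could disagree in these lists too, since 5 genes that did not pass by their brightest probe had another tested probe that did, 2 of them regulators.

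Of 8 tested exchangers 1 passed, and of 8 tested calcium store genes 2 did. SLC9A5, a sodium and proton exchanger, rose from 80.0 and 90.4 to 160.0 and 164 (1.02 log2, limma adjusted p = 0.00973). Without high-fertile pool 1 the difference was 0.94 log2 and the call was lost. Its other probes were not tested. A_73_P067141, well above background on 2 arrays, read 16.0 and 23.9 against 17.2 and 22.0 (0.08 log2), and A_73_P439191 was so on none. ITPR1, the receptor that releases calcium from the endoplasmic reticulum on inositol trisphosphate, rose from 1639 and 2132 to 3617 and 3554 (1.03 log2, adjusted p = 0.0136), a call that was lost without high-fertile pool 1 (adjusted p = 0.0635). Of the other tested ITPR1 probes, 2 passed at 0.64 and 0.96 log2 and 1 gave -0.73 log2 (adjusted p = 0.402). RYR2, a ryanodine receptor of the calcium store, fell at its brightest tested probe from 23.9 and 29.3 to 16.5 and 14.6 (-0.68 log2, adjusted p = 0.0320). Of its 4 other probes, none tested, 3 were well above background on no array. The other one was so on 2 arrays and read 21.7 and 13.9 against 28.6 and 24.7, higher in the low-fertile pools. The RYR2 call was lost when any pool was left out, and it was -0.14 under normexp (adjusted p = 0.199). RYR2 was named after its values were seen.

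**Figure D5:**
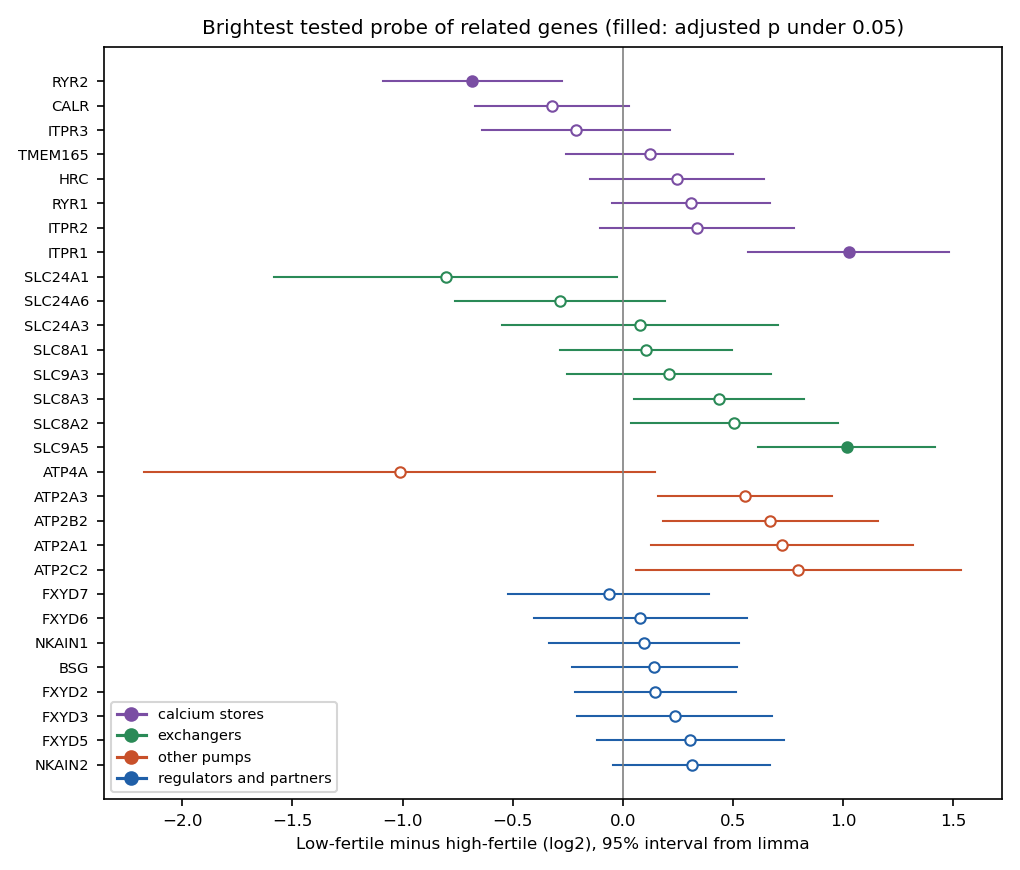
Low-fertile minus high-fertile difference (log2) with 95% intervals from limma of the brightest tested probe of 29 related genes, coloured by list and filled where the adjusted p was under 0.05. The filled points are RYR2 at -0.68, ITPR1 at 1.03 and SLC9A5 at 1.02.

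The genes most like ATP2C1, whose fitted difference past the threshold was the largest by size but rests on surrogates, were sought by Euclidean distance between shifted log2 values centred over the 4 arrays. The 3 nearest features carried no current gene symbol. Next came DDHD2 at a distance of 0.154, SLC18A2 at 0.190 and AKAP7 at 0.196. All 3 carried surrogate values in both low-fertile pools, as ATP2C1 did, so on those arrays the likeness is that of surrogates. DDHD2 read 39.4 and 39.6 in high-fertile against 3.53 and 6.81 in low-fertile pools, beside 37.7, 39.0, 3.75 and 7.44 for ATP2C1.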

How the data were processed

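Sperm RNA of 2 high-fertile and 2 low-fertile pools was measured on 4 one-colour arrays. The authors deposited the scanner output, linear intensity per spot from Feature Extraction 11.5.1.1 with the background subtracted, and a table of log2 values shifted by the 75th percentile in GeneSpring GX 12.6. Its medians were -1.14, -1.14, -1.13 and -1.47, and its columns correlated with the recomputed values at 0.997 to 0.999. Columns mapped to no sample numbered 0.

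Log2 spots of a probe were averaged without outlier spots, and a probe took a mark held by at least 0.5 of its spots. The 21033 probes entered limma 3.58.1 (R 4.3.3, prior degrees of freedom 3.52), with Benjamini-Hochberg adjustment; the method was tested on simulated data. A gene was read by its brightest tested probe. The replicate numbers did not pair the pools (r = 0.0055 between the groups' pool differences).

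The members and gene lists were chosen with earlier results of these data known. Named genes were all 8 members, list genes past the threshold with a log2 difference beyond 1, the partners PLN and BSG, and the 3 genes nearest the member with the largest fitted difference past the threshold, limited to current symbols after the values were seen. The lists were other pumps, regulators and partners, exchangers, calcium stores, and sperm, leukocyte, epithelial and red cell markers. Some genes planned for the other pumps are not reported here, and the list counts leave them out. Of the sperm markers PRM1 passed (0.67 log2, limma adjusted p = 0.0231; 0.0738 to 0.107 without either high-fertile pool or low-fertile pool 2), of the leukocyte markers PTPRC, of the red cell markers HBB, and of the 6 tested epithelial markers 0, with 2 at an unadjusted p under 0.05 in limma and 2 by the methods' t-test. Of 17 member probes with a RefSeq accession, 16 matched their current symbol. Alternatives are given in the closing section.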

Additional observations from a re-analysis of the deposited data

How the results depend on the processing

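Besides the fit reported above, 17 other settings were run, and no exact permutation test could pass at this size. Calls over all probes were 5632, fell to 0 without a filter on dim probes (9278 at an unadjusted p under 0.05) and to 0 by the methods' t-test (6084 unadjusted), and were 2644 to 4989 with each pool left out. Spike-in scaling turned the split of lower and higher calls from 3692 and 1940 to 6924 and 567, and keeping only probes well above background on all arrays turned it to 1625 and 2714. Of the 6 tested pump genes, 3 passed in the main setting, 0 without the filter (2 unadjusted) and 0 by the methods' t-test (3 unadjusted). Keeping only probes well above background on all arrays left 3 pump genes, of which 2 passed. Under the other settings with all 4 pools 2 to 4 passed. Of the related genes 3 passed, 6 under normexp, 6 with probes well above background on all arrays, 5 each with bright patches left out, with an intensity trend and with the median over a gene's tested probes, 0 without the filter (3 unadjusted), 0 by the methods' t-test (7 unadjusted), and 1 to 5 with each pool left out. With the replicate number as a block the counts were 5331 for all probes, 3 for the pump genes (ATP2A2 in, ATP2B4 out) and 4 for the related genes; among the pump probes it changed no other call. Differences that turned sign were those of ATP1A4 A_73_P103466 (0.022 under normexp, -0.298 to 0.0708 with each pool left out), ATP1B2 (0.0346 under normexp, 0.0459 under quantile normalization, -0.24 to 0.16 with each pool left out) and BSG (-0.24 under spike-in scaling). None of these had passed the test. Over the tested single probes named, 178 of 232 values kept direction and side of the threshold, 43 lost the call, 5 gained it and 6 turned sign. The causes were not tested. Without the filter more probes were tested and the SE of ATP1B3 A_73_P495158 was 0.212 in place of 0.141. Leaving out a pool leaves fewer arrays, the lone array of a group being assumed to vary like the others. Dim probes limit the list: 11 of 19 pump probes could not be tested.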
